A study of Homo sapiens with 6 samples.

Results

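Glucocorticoid receptor (GR) binding was described around 7 cytokine genes whose repression is a classical glucocorticoid effect: IL6, CXCL8, CCL2, IL11, LIF, IL1A and IL1B. A peak was counted when its centre lay in one of 6 hg19 windows that hold each gene body and about 50 kb on each side, with IL1A and IL1B in 1 shared window. The windows lay at 22.71 to 22.83 Mb of chromosome 7 (IL6), 74.55 to 74.66 Mb of chromosome 4 (CXCL8), 32.53 to 32.64 Mb of chromosome 17 (CCL2), 55.82 to 55.94 Mb of chromosome 19 (IL11), 30.58 to 30.7 Mb of chromosome 22 (LIF) and 113.48 to 113.65 Mb of chromosome 2 (IL1A and IL1B). They held 50 of the 116356 peaks of the 12 lists, and these 50 peaks merged into 17 of 43713 sites. The rule uses position and gene names and no peak value, but the genes were chosen with earlier results of these data known.

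The peaks came from ChIP-seq with a GR antibody in 2 stable lines made from U-2OS, a human osteosarcoma line. The MR/GR cell carries the mineralocorticoid receptor (MR) together with GR, and the GR cell is the line named for GR alone. Each line received 100 nM dexamethasone, a synthetic glucocorticoid, or the vehicle DMSO, with an exposure of 2 hr, and each of the 4 groups (MR/GR cell with dexamethasone, GR cell with dexamethasone, MR/GR cell with vehicle, GR cell with vehicle) has 3 numbered peak lists. Each receptor combination is represented by 1 line. Nothing in the labels says that lists of a group are separate cultures, and p-values then cover the variation from list to list, which may be technical. The lists give positions without heights, and sequencing depth is unknown, so a place with no peak may lie under the calling threshold. Expression was not measured here, so repression of these genes in these lines was not tested. Dexamethasone lists held 3713, 10459 and 6660 peaks in the MR/GR cell against 37650, 30912 and 26191 in the GR cell, and vehicle lists held 132, 11 and 40 against 122, 238 and 228.

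Ligand-bound GR moves to the nucleus and can bind DNA directly at palindromic response elements, or can act through other DNA-bound factors such as NF-kB and AP-1. NF-kB and AP-1 drive inflammatory cytokine genes, and their inhibition by GR is a textbook account of how glucocorticoids lower cytokine output. IL1A and IL1B encode the interleukin 1 cytokines, which induce the others, IL6, IL11 and LIF encode cytokines that signal through the shared receptor chain gp130, and CXCL8 and CCL2 encode chemokines that attract neutrophils and monocytes.

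Promoter sequences of the genes were searched for NF-kB and AP-1 motifs, which were chosen after the sequences had been seen. Of the 7 genes, 5 matched a RefSeq promoter of the GRCh38.p14 build, and 3 are printed: CXCL8, which had a site of both lines within its rounded gene interval (the window less 50 kb on each side), IL6, whose closest site of 3 lists lay on its promoter side, and IL11, which had no peak. Each line gives the 250 bases before the annotated start, 5′ to 3′ on the gene's strand, and capitals mark the NF-kB motif GGANTTTCC or the AP-1 motif TGANTCA, searched on both strands. These are positions of another build than the peaks, so no peak was placed on these bases.
CXCL8 (chr4:73740319-73740568, plus strand): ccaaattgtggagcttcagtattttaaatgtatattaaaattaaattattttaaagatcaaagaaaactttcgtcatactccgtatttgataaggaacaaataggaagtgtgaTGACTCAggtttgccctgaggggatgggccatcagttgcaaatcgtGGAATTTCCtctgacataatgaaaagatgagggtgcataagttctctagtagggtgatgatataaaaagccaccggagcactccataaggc
IL6 (chr7:22726950-22727199, plus strand): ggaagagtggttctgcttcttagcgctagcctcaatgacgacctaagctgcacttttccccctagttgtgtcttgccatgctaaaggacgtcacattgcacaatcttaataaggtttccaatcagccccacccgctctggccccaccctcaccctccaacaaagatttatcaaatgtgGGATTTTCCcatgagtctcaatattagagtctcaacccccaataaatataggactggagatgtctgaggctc
IL11 (chr19:55370464-55370713, minus strand): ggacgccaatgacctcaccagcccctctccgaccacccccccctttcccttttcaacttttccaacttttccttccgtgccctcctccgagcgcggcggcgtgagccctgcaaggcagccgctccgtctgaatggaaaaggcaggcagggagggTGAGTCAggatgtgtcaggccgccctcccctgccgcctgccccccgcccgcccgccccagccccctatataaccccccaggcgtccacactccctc

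The CXCL8 bases held 1 NF-kB match and 1 AP-1 match, the IL6 bases 1 NF-kB match, and the IL11 bases 1 AP-1 match. Over all 35116 RefSeq promoters, 1.45% held the NF-kB motif and 6.57% the AP-1 motif in the same 250 bases. The 2 annotated promoters of IL1A overlap, and both held the AP-1 motif. They shared 1 match, and one of them had 1 more. The promoter of IL1B held neither motif. The palindromic GR element, with the half-sites GNACA and TGTNC around 3 free bases, found in 0.327% of all promoters, had 0 matches in those of CXCL8, IL6, IL11, IL1A and IL1B. The motifs overlap in none of the marked places and were chosen after the sequences had been seen, so the matches are a description of these letters.

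After dexamethasone, the GR cell held a reproducible site in 4 of the 6 windows (66.7%), against 59.4% of genome bins of 120 kb. These 4 windows cover 5 of the 7 genes, as IL1A and IL1B share 1. Narrowed to the rounded gene intervals, 2 windows had a GR-cell site. Those intervals are shorter than the 120 kb bins, so the share of bins is no background for that count. No window had a peak with vehicle, where 0.622% (MR/GR cell) and 1.84% (GR cell) of bins had one. A line was taken to hold a site when at least 2 of its 3 dexamethasone lists had a peak there. By that count the MR/GR cell held 5 sites, 3 at LIF, 1 at CXCL8 and 1 at IL1A/IL1B, and the GR cell held 11, 3 each at CXCL8, LIF and IL1A/IL1B and 2 at IL6. Over 24933 bins of 120 kb that tile the genome, 17.6% held an MR/GR-cell site and 59.4% a GR-cell site. CCL2 had a peak in 1 list, and IL11 had no peak in any of the 12 lists. Of the 17 sites, 4 were held by both lines, 1 by the MR/GR cell alone, 7 by the GR cell alone and 5 by neither. The MR/GR cell count rested on lists 2 and 3 of that line: it was 2 without list 2, 2 without list 3 and 5 without list 1. With a list left out, a site had to be in both remaining lists of the line. That rule is stricter, so sites of lists 2 and 3 alone drop out by construction.

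**Figure D1:**
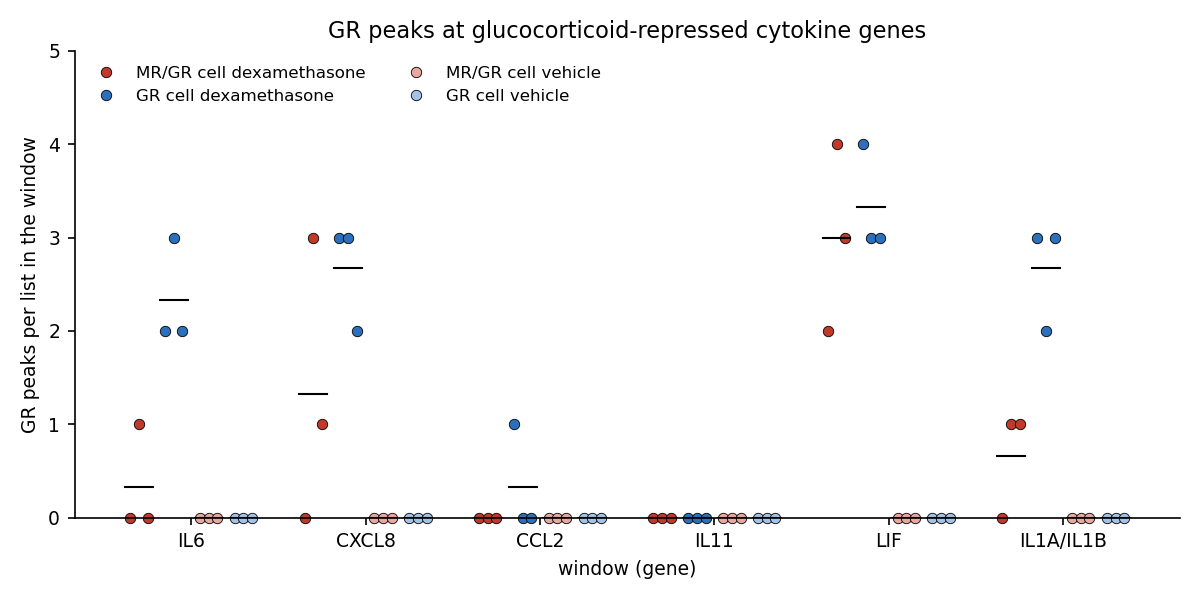
GR peaks per list (vertical axis, number of peaks) in each of the 6 windows (horizontal axis), with 1 point per list, colours for the 4 groups and a black line at each mean. Vehicle lists lie at 0 in every window, MR/GR-cell and GR-cell dexamethasone lists do not overlap at IL6 and IL1A/IL1B, and they overlap at CXCL8 and LIF.

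IL1A and IL1B, 2 neighbouring genes of chromosome 2, had 0, 1 and 1 peaks in the MR/GR-cell dexamethasone lists, against 3, 2 and 3 in the GR-cell lists. The groups did not overlap, with fewer peaks in each MR/GR-cell list. The difference was -2 peaks per list (SE 0.471, exact permutation p = 0.1, two-sided), where 0.1 is the smallest p that 3 lists against 3 can give. MR/GR-cell lists lay below GR-cell lists without overlap in 38.5% of the genome bins, so this pattern is a common one. With the window widened by 50 kb on each side the difference was -3.67 (exact permutation p = 0.1, two-sided).

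The site that both lines held there, chr2:113597762-113598242, was called in MR/GR-cell lists 2 and 3 and in all 3 GR-cell lists. It lay at the higher-coordinate end of the interval of the gene bodies, on the side of IL1B, and since both genes read from the minus strand this is the promoter side of IL1B. Peak centres at this site spread over 67 bp in the MR/GR cell and 91 bp in the GR cell, and the mean centres of the lines were 76.8 bp apart, the widest offset among the 6 sites in the windows with peaks of both lines. The site chr2:113551840-113552287 was in no MR/GR-cell list and in all 3 GR-cell lists. The site chr2:113563022-113563447 was in no MR/GR-cell list and in GR-cell lists 1 and 3. These GR-cell sites lay well inside the interval that spans the 2 genes, at -12.94 and -1.77 kb from its middle. Of the 3 sites, the middle one was thus missing from GR-cell list 2.

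IL6, the gene of the acute-phase cytokine interleukin 6, had 0, 1 and 0 peaks in the MR/GR-cell dexamethasone lists, against 2, 3 and 2 in the GR-cell lists. Again the groups did not overlap (difference -2 peaks per list, SE 0.471, exact permutation p = 0.1, two-sided), but within the rounded gene interval they overlapped, with a difference of -0.333 (exact permutation p = 1, two-sided). The site chr7:22757694-22758132 was in no MR/GR-cell list and in all 3 GR-cell lists, with centres within 44 bp. It lay 2.09 kb below the rounded interval of the gene body, which is the promoter side of this plus-strand gene. Window limits are given in steps of 10 kb, so distances from a gene are good to several kb only. The site chr7:22715490-22716000, 44.3 kb below the interval, was also in no MR/GR-cell list and in all 3 GR-cell lists, with centres spread over 116 bp, the widest of the 11 GR-cell sites.

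Other IL6 peaks were in 1 list each. The peak chr7:22821037-22821320, 41.2 kb above the interval, was in MR/GR-cell list 2 and no GR-cell list, so the MR/GR-cell peak of this window did not lie at a GR-cell site. The peak chr7:22762987-22763352, inside the interval, was in no MR/GR-cell list and in GR-cell list 2. IL6 was thus the window in which every reproducible site was a GR-cell site and no MR/GR-cell peak fell on one. Such sites are common: over the genome, 65.6% of sites of all 3 GR-cell lists were in no MR/GR-cell list.

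LIF, which encodes leukemia inhibitory factor, was the window with most MR/GR-cell sites. It had 2, 4 and 3 peaks in the MR/GR-cell dexamethasone lists, against 4, 3 and 3 in the GR-cell lists, and these overlapped. The difference was -0.333 peaks per list (SE 0.667, exact permutation p = 1, two-sided), and it was 0.167 without MR/GR-cell list 1, 0 without GR-cell list 1, -0.833 without MR/GR-cell list 2 and -1.33 with the window widened by 50 kb on each side. Each line held 3 sites in this window, while the mean length of the dexamethasone lists was 4.55 times higher in the GR cell.

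The sites chr22:30603034-30603461 and chr22:30686951-30687391 were in all 3 MR/GR-cell lists and all 3 GR-cell lists, the 2 sites of the 6 windows in all 6 lists. They lay 26.8 kb below and 37.2 kb above the rounded LIF interval. Their centres were within 19 and 32 bp in the MR/GR cell and within 53 and 46 bp in the GR cell, and the lines' mean centres differed by 29 and 10.3 bp. The higher of them lies on the side of OSM, the gene of the related cytokine oncostatin M. In RefSeq (GRCh38.p14) OSM is the next protein-coding gene above LIF, with HORMAD2 the next below. Only gene order was used, so whether the site lies before or past OSM was not determined. The files do not tie a site to either neighbour or to LIF. Within 1 Mb of the middle of the LIF window lay 11 MR/GR-cell sites and 25 GR-cell sites, against medians of 3 and 20 and upper quartiles of 6 and 27 over the genome bins. Dense surroundings were not particular to LIF. The same counts were 8 and 29 at CXCL8, 8 and 31 at IL1A/IL1B, and 5 and 25 at IL6.

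The remaining LIF sites differed between the lines. The site chr22:30628807-30629135, 1.03 kb below the interval, was in MR/GR-cell lists 2 and 3, with centres 35 bp apart, and in no GR-cell list. Among all 5965 MR/GR-cell sites, 5.6% were in no GR-cell list, and in the windows it was 1 of 5. The site chr22:30672008-30672431, 22.2 kb above the interval, was in no MR/GR-cell list and in all 3 GR-cell lists. Of the peaks in 1 list, chr22:30592643-30592926 was in MR/GR-cell list 2 and chr22:30601389-30601742 in GR-cell list 1. Sites of the LIF window therefore included each kind found in the windows: shared, of the MR/GR cell alone and of the GR cell alone.

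IL11, the gene of the gp130 cytokine interleukin 11, had 0 peaks in every MR/GR-cell list and 0 in every GR-cell list. The closest site outside its window was chr19:55795200-55795553, 24.6 kb below, in no MR/GR-cell list and 1 GR-cell list. On the other side chr19:55990828-55991290, 51.1 kb above, was in no MR/GR-cell list and 3 GR-cell lists. From the middle of the window the nearest held site was 255 kb away in the MR/GR cell and 111 kb away in the GR cell. Over the genome bins the median distance was 257 kb in the MR/GR cell and 42.3 kb in the GR cell (upper quartile 99.1 kb). Within 1 Mb lay 3 MR/GR-cell sites and 27 GR-cell sites, against medians of 3 and 20 over the bins.

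CXCL8, which encodes the neutrophil chemokine interleukin 8, had 0, 3 and 1 peaks in the MR/GR-cell dexamethasone lists, against 3, 3 and 2 in the GR-cell lists. The groups overlapped through MR/GR-cell list 2, the longest list of that line. The difference was -1.33 peaks per list (SE 0.943, exact permutation p = 0.4, two-sided) and -2.17 without that list, -0.667 without MR/GR-cell list 1 and -0.333 within the rounded gene interval. The site chr4:74606109-74606557 was in MR/GR-cell lists 2 and 3 and in all 3 GR-cell lists, and it lay inside the rounded gene interval. It was the tightest of the 11 GR-cell sites, with centres within 22 bp, while its MR/GR-cell centres were 84 bp apart, the widest of the 5 MR/GR-cell sites.

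The other CXCL8 sites flanked the gene. The site chr4:74570241-74570664, 29.5 kb below the interval and so on the promoter side of this plus-strand gene, was in MR/GR-cell list 2 and in all 3 GR-cell lists. The site chr4:74641998-74642403, 32.2 kb above it, was in MR/GR-cell list 2 and in GR-cell lists 1 and 2. In all, 4 sites of the windows were in 1 MR/GR-cell list, and all 4 were from list 2. Over the genome, list 2 was the source of 80.8% of the 5674 sites of 1 MR/GR-cell list.

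CCL2, which encodes the monocyte chemokine MCP-1, had 0 peaks in each MR/GR-cell dexamethasone list, against 1, 0 and 0 in the GR-cell lists (difference -0.333, SE 0.333, exact permutation p = 1, two-sided). The peak, chr17:32581163-32581516, lay inside the rounded gene interval and was in GR-cell list 1, the longest of the 12, without which the difference was 0. A second peak of the same list, chr17:32526912-32527265, lay 2.91 kb below the window and was in no other dexamethasone list. The surroundings were sparse: within 1 Mb there were 0 MR/GR-cell sites and 8 GR-cell sites, against medians of 3 and 20 over the genome bins. The nearest held site was 1070 kb from the middle of the window in the MR/GR cell and 144 kb in the GR cell. CCL7, the next protein-coding gene above CCL2 in RefSeq (GRCh38.p14), belongs to the same chemokine family.

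**Figure D2:**
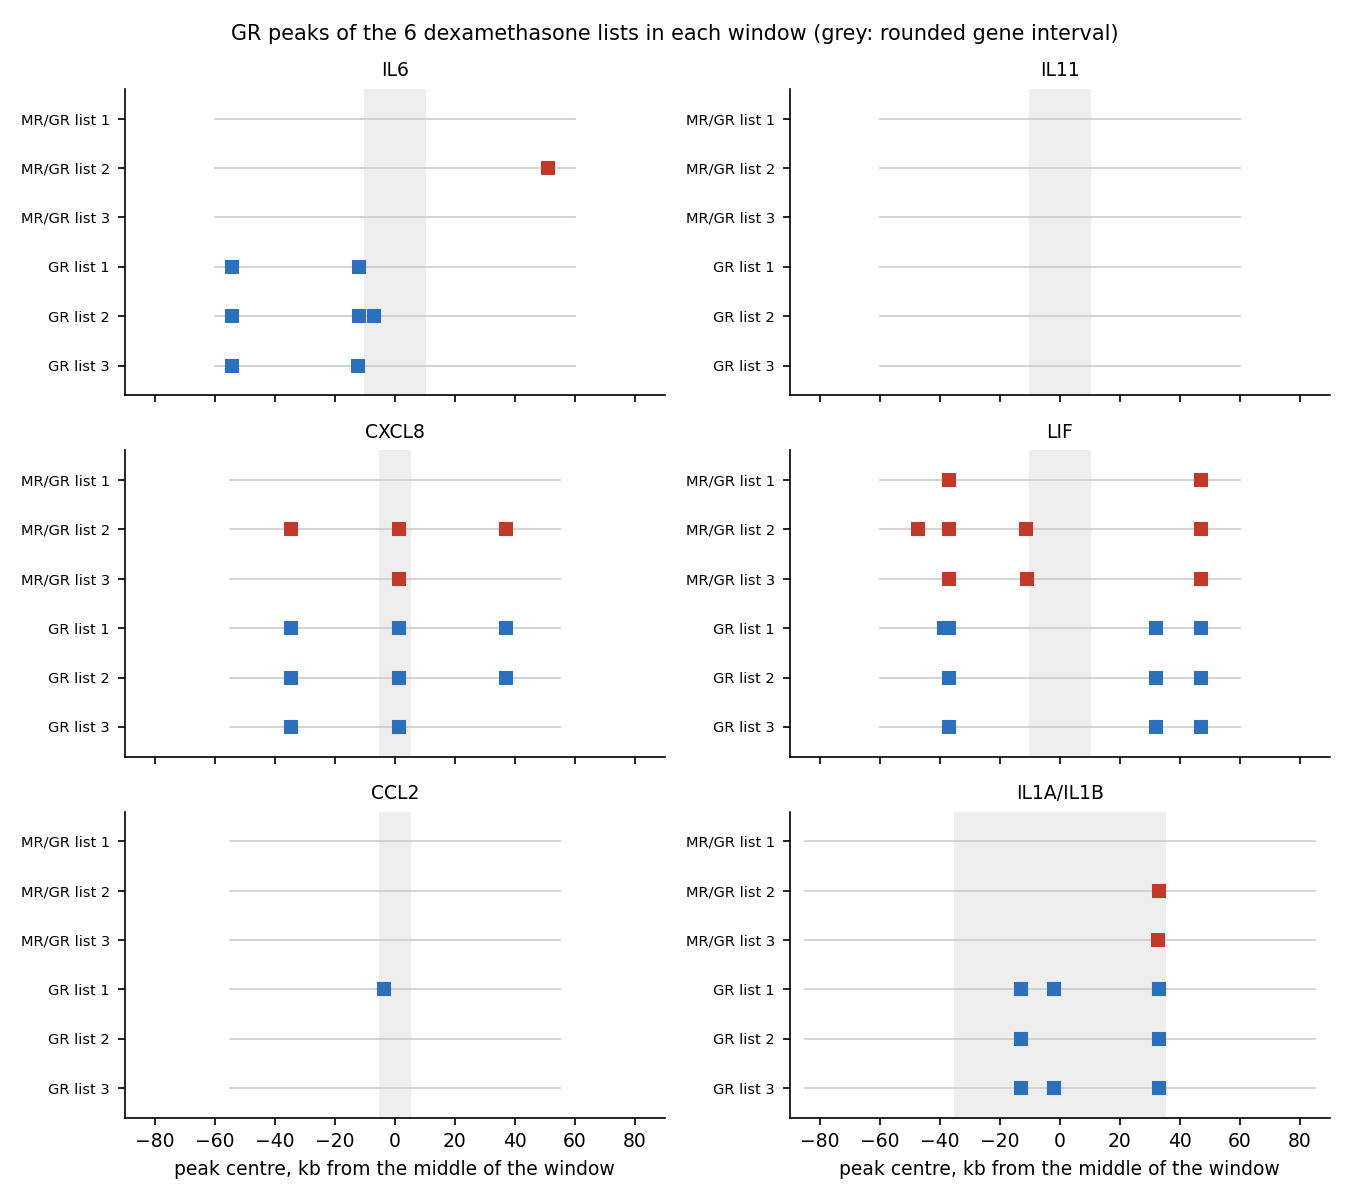
Peak centres of the 6 dexamethasone lists (rows, MR/GR cell above GR cell) as distance in kb from the middle of each window (horizontal axis), with grey lines for the window and grey shading for the rounded gene interval. At LIF the squares at -36.75 and 47.17 kb run through all 6 lists, at IL6 the MR/GR-cell square at 51.18 kb stands apart from the GR-cell ones, and IL11 is empty.

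All 50 peaks of the windows came from dexamethasone lists. The 3 vehicle lists of each line had 0 peaks in each of the 6 windows, where a vehicle peak was in 0.622% of genome bins for the MR/GR cell and 1.84% for the GR cell. Treated MR/GR-cell lists lay above all vehicle lists of that line in 1 of 6 windows, LIF (difference 3 peaks per list, SE 0.577, exact permutation p = 0.1, two-sided), against 10.6% of bins. Treated GR-cell lists did so in 4 of 6 windows, IL6, CXCL8, LIF and IL1A/IL1B, against 51.6% of bins. Differences in those 4 were 2.33, 2.67, 3.33 and 2.67 peaks per list (SE 0.333 each), each with an exact permutation p of 0.1 (two-sided). No LIF site lay within the rounded gene interval, where the LIF differences were 0 in both lines, and the GR-cell differences there were 0.333 at IL6 and 1 at CXCL8. The exact permutation test gave p = 1 for CCL2 and IL11 in the GR cell, and p = 0.4 for CXCL8 and IL1A/IL1B and p = 1 for IL6, CCL2 and IL11 in the MR/GR cell (two-sided). The nearest vehicle peaks lay 272 kb (MR/GR cell) and 231 kb (GR cell) from the middle of the IL11 window, and 223 kb (GR cell) from that of IL1A/IL1B. Elsewhere they were 916 kb away or more.

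Read against the genome, the count of windows with at least 1 GR-cell site was near the background. That of windows with at least 1 MR/GR-cell site was above it. Windows with at least 3 sites were above their background in both lines. These are counts over 6 windows, and no test was made on them. At least 1 site was held in 3 of 6 windows by the MR/GR cell, or 50%, against 17.6% of bins, and in 4 of 6 windows by the GR cell, or 66.7%, against 59.4% of bins. At least 3 sites were held in 1 window by the MR/GR cell (1.3% of bins) and in 3 windows by the GR cell (16.1% of bins). The median window held 0.5 MR/GR-cell sites and 2.5 GR-cell sites, against 0 and 1 for the median bin. The bins include gene-poor and hardly mappable sequence, and the windows range from 110 to 170 kb. With bins of 170 kb the shares were 23.1% and 69.7%, and among bins with at least 1 peak of any list they were 25.1% and 84.6%. The latter shares leave out bins without a peak, while the 6 windows include IL11, which had no peak. The window counts are therefore not directly comparable with them. The MR/GR-cell count is small and rested on lists 2 and 3 of that line: 1 window, LIF, was left without list 2 and likewise without list 3. A site then had to be in both remaining lists, a stricter rule.

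**Figure D3:**
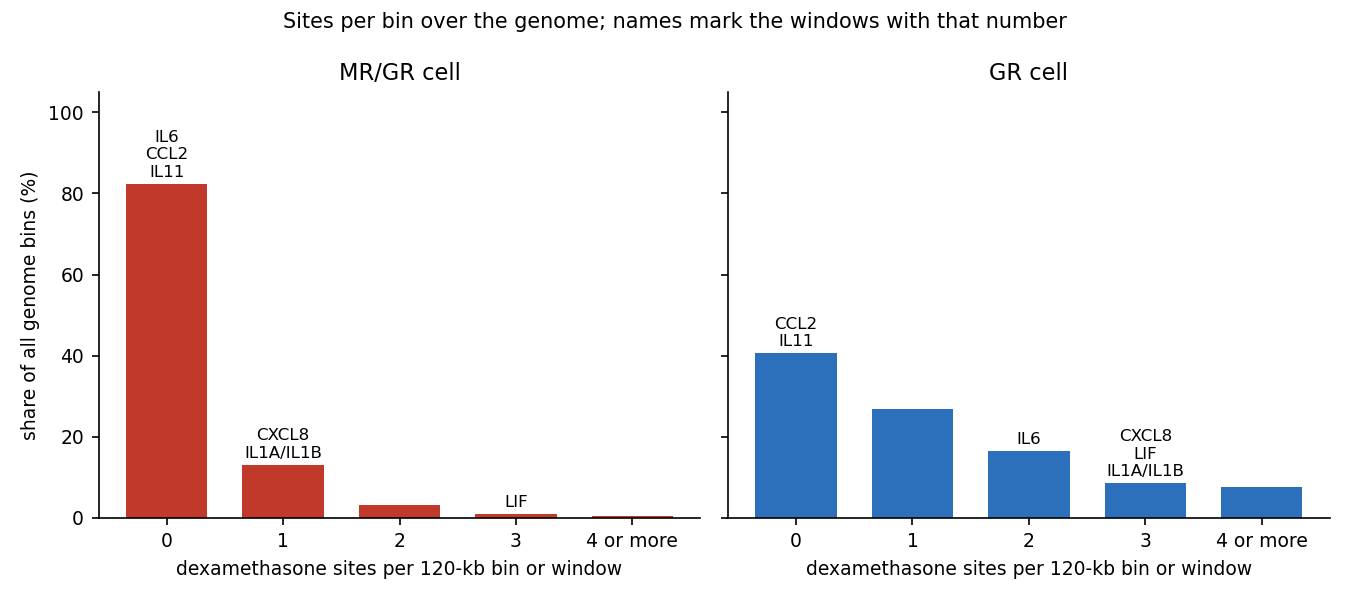
Share of 24933 genome bins of 120 kb (vertical axis, percent) by the number of dexamethasone sites they hold (horizontal axis), MR/GR cell left and GR cell right, with the names of the windows that hold that number. LIF stands in the class of 3 MR/GR-cell sites with 0.967% of bins, and CCL2 and IL11 stand at 0 in both lines.

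The lines were also compared site by site. Of the 11 GR-cell sites in the windows, 4 were held by the MR/GR cell, 36.4% (Wilson 95% interval 15.2 to 64.6), against 17.9% of all 30365 GR-cell sites. Among sites of all 3 GR-cell lists it was 4 of 9, 44.4% (18.9 to 73.3), against 22.5% over the genome, and another 4 of the 9 were in no MR/GR-cell list, against 65.6%. The interval of the first share includes the genome value, and intervals cover counting error over sites only. Without the LIF window the first share was 2 of 8, or 25% (7.15 to 59.1). In turn, 4 of 5 MR/GR-cell sites were held by the GR cell, against 90.9% over the genome. Peaks of the MR/GR cell lay below those of the GR cell without overlap in 2 of 6 windows, IL6 and IL1A/IL1B, or 2 of the 4 windows with a GR-cell site, against 64.7% of bins with one. They were above without overlap in 0 of 6 windows, against 0.0321% of bins.

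Because the lists differ in length, the share of each list that fell in the windows was computed. Summed over the windows, MR/GR-cell lists had 2, 9 and 5 peaks and GR-cell lists 13, 11 and 10. Per 10000 peaks of the list this was 5.39, 8.61 and 7.51 in the MR/GR cell, against 3.45, 3.56 and 3.82 in the GR cell, so the windows took a higher share of each MR/GR-cell list. The means were 7.17 ± 1.64 and 3.61 ± 0.188 (SD, n = 3 lists each), and no p is given for a sum over chosen genes. The difference was not seen without LIF: the shares over the other 5 windows were 0, 4.78 and 3.0 in the MR/GR cell, against 2.39, 2.59 and 2.67 in the GR cell, and they overlapped. The means were then 2.59 ± 2.42 and 2.55 ± 0.145 (SD, n = 3 lists each), 0.0442 apart. As plain numbers, those 5 windows had 2.33 ± 2.52 peaks per list in the MR/GR cell and 8.0 ± 1.0 in the GR cell (SD, n = 3 lists each).

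**Figure D4:**
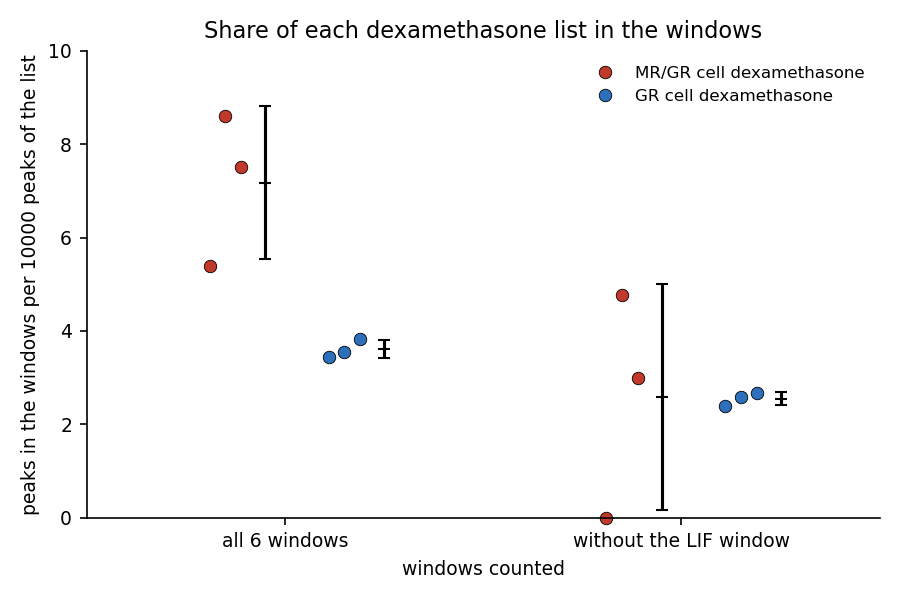
Peaks in the windows per 10000 peaks of a list (vertical axis) for the 3 dexamethasone lists of the MR/GR cell (left of each pair) and of the GR cell (right), with all 6 windows or without LIF (horizontal axis), and with bars for mean and SD. With all windows the MR/GR-cell lists lie between 5.39 and 8.61 and the GR-cell lists between 3.45 and 3.82, and without LIF the lists overlap.

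At sites with peaks of both lines the peak centres lay close together. Over the 6 such sites in the windows the mean centres differed by 6.33 to 76.8 bp, with a median of 24 bp, against 24.8 bp over 9379 such sites of the genome. Centres of the lists of 1 line spread over a median of 35 bp at the 5 MR/GR-cell sites and 46 bp at the 11 GR-cell sites, against 45 and 43 bp over the genome.

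Sites close to the window limits give the values just outside. The closest were the CCL2 peak at 2.91 kb, chr2:113463038-113463461 at 16.8 kb below the IL1A/IL1B window (no MR/GR-cell list, 3 GR-cell lists), chr7:22848307-22848660 at 18.5 kb above the IL6 window (no MR/GR-cell list, 1 GR-cell list) and chr22:30721947-30722408 at 22.2 kb above the LIF window (no MR/GR-cell list, 3 GR-cell lists). The sites closest to a limit on the inside were both at IL6, chr7:22715490-22716000 at 5.74 kb (no MR/GR-cell list, 3 GR-cell lists) and chr7:22821037-22821320 at 8.82 kb (1 MR/GR-cell list, no GR-cell list). The next site above the CXCL8 window, on the side of the related chemokine gene CXCL6, was chr4:74716277-74716703 at 56.5 kb, in no MR/GR-cell list and 3 GR-cell lists.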

How the data were processed

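ChIP-seq peak lists for GR were used from 4 immunoprecipitations, 3 lists each, and the 2 input samples had no list used here. Per the submitters' processing notes, the authors used HOMER 4.8.3, Picard 1.115, SAMtools 1.3.1, Bowtie and Trim Galore 0.4 with hg19 coordinates. Their roles and settings are not given in the sources used here. Deposited lists hold a chromosome, start and end per peak, and no score, and the list names mark each as set against input. All peaks of a list have 1 width, apart from 1 peak of GR-cell dexamethasone list 2, so peak width carries no strength.

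Dexamethasone peaks that overlapped by at least 1 bp were merged into sites, placed by their middle. Bins of 120 kb, the median window length, tiled the span of peaks of each chromosome. Peaks per window were compared by exact permutation tests (20 arrangements, two-sided) and shares have Wilson 95% intervals. Python 3.11.15, numpy 2.4.6, SciPy 1.17.1, pandas 2.3.3 and matplotlib 3.10.9 were used, and merging was tested on simulated data. Members, lists and tests were chosen with earlier results of these data known, and all genes and sites of the windows were named. Other repressed genes were not analysed, since an hg19 annotation was not used here. Peak sequences were not analysed here for the same reason. Alternatives were other overlap, list and window rules, a block for list number, and 1 list left out at a time.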

Additional observations from a re-analysis of the deposited data

How the results depend on the processing

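Of 180 alternatives for differences per window, 140 concerned a difference that was not 0: 116 kept its sign and stayed within 1.5 times, 15 kept the sign and moved further, 8 went to 0 and 1 changed sign. Tests of 3 lists against 3 cannot pass 0.05, so p says nothing about stability here. The change of sign was at LIF between the lines (-0.333, and 0.167 without MR/GR-cell list 1, with a range of -0.833 to 0.167 over lists left out). Differences of 0 arose at LIF with windows narrowed to the gene interval (between the lines and for dexamethasone in each line) and without GR-cell list 1 (between the lines), at CCL2 without GR-cell list 1 (between the lines and for dexamethasone), and at IL6 in the MR/GR cell with narrowed windows and without MR/GR-cell list 2. Narrowed windows also moved IL6 between the lines to -0.333 and for dexamethasone in the GR cell to 0.333. With widened windows the dexamethasone difference at IL1A/IL1B was 2.33 in the MR/GR cell and 6 in the GR cell, and IL11 had 0.333 in the GR cell. Of 80 alternatives for the other results, 58 stayed within their spread or within 1.5 times. MR/GR-cell sites went from 5 to 9 with at least 1 list required and to 2 with all 3 lists, with windows narrowed to the gene interval or without LIF, and ranged from 2 to 5 with 1 list left out (2 without MR/GR-cell list 2 or 3). Sites of both lines went from 4 to 2 under the same 3 settings and ranged from 2 to 4 with 1 list left out. GR-cell sites went from 11 to 4 with narrowed windows. Windows with a GR-cell site went from 4 to 2 with narrowed windows, and windows with an MR/GR-cell site from 3 to 1 with all 3 lists, and lay between 1 and 3 with 1 list left out. The difference in the share per 10000 peaks, 3.56, was 0.255 with narrowed windows and 0.0442 without LIF, a choice made after seeing the data. The share of bins with a site was 23.1% (MR/GR cell) and 69.7% (GR cell) with bins of 170 kb, and 25.1% and 84.6% among bins with a peak. Apart from narrower windows, fewer windows or a different number of lists, which change the counts by construction, the cause was not tested.

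List numbers do not come from the labels. Same-numbered dexamethasone lists of the lines had correlations over sites of 0.103, -0.0249 and -0.00675, and differently numbered ones -0.126 to 0.111, so the numbers were not taken as pairs. With a replicate block for list number the differences were unchanged in size (-2 at IL6 and at IL1A/IL1B), with an exact sign-flip p of 0.25 at best, the smallest that 3 blocks allow. Without heights or depth, weak binding in the shorter MR/GR-cell lists cannot be told apart from no binding.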
